A study of Solanum tuberosum with 12 samples.

Results

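The tubers of 4 potato (Solanum tuberosum) cultivars, with 3 small RNA libraries each, fell into 2 sides: Black kingkong and LK99 on one, Red beauty and Longshu No.7 on the other. Of the 3 ways to put 4 cultivars into 2 pairs, this one was picked from the measured values because it splits the 12 libraries most strongly, so the contrast between the sides is given as a description, with no test and no p-value. Each distinct mature sequence was counted once, and each cultivar weighed equally, whatever its counts. A sequence was called separated where all 6 libraries of one side lay above all 6 of the other and the sides differed at least 2-fold. Of 1003 sequences with enough counts to be fitted, 80 were separated. On the Black kingkong and LK99 side, 44 of them were higher and 36 were lower.

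All 12 libraries came from tuber tissue at an age of 150 days, from plants grown at 1 station under the same conditions, and the series is titled as a search for miRNAs that act in anthocyanin synthesis. The groups were Black kingkong (n = 3), LK99 (n = 3), Red beauty (n = 3) and Longshu No.7 (n = 3). The labels give no genotype beyond the cultivar, no treatment and no skin or flesh colour, and nothing in them says that replicate libraries were made from separate plants. Each cultivar is 1 genotype, so a difference between the sides is a difference between 2 pairs of genotypes, and the spread between libraries may be technical. In bulk tuber tissue, fewer cells of a type and less RNA per cell cannot be told apart.

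Plant miRNAs are cut from both arms of a hairpin precursor as short duplexes, and the strand that is kept guides an Argonaute protein to RNAs with a near-complementary site, which are cut or repressed. Several old families regulate transcription factors: miR858 and miR828 are known to target R2R3-MYB genes, the class that holds activators of anthocyanin and other phenylpropanoid synthesis, miR396 targets growth-regulating factors, miR166 HD-ZIP III factors and miR319 TCP factors. In potato tubers the anthocyanin pathway is switched on by MYB factors, and cultivars differ in it. Many other sequences in the table were predicted by the authors. Nothing is known here of their targets.

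The sequences with a potato name (stu-) or a name taken from other species (ending in x, y or z) that were separated are printed first, since they can be tied to known families. They run 5′ to 3′ as DNA letters, and the capitals mark the seed, bases 2 to 8. The first 9 were higher and the last 4 were lower in Black kingkong and LK99.
miR858-x: tCTCATTGtctgttcgacct
miR858-y: cTCATTGTctgttcgaccttg
miR858-z: gTCTCATTgtctgttcgacct
miR828-x: tCTTGCTCaaatgagtattcca
stu-miR530: tCTGCATTtgcacctgcacct
stu-miR8006-5p: tAGTTTTTggacgacaggggcacc
miR8006-x: tAGTTTTTggactgcaggggcacc
stu-miR169f-3p: gCAAGCATccttggcgact
stu-miR393-5p: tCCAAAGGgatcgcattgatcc
stu-miR319a-5p: aGAGCTTTcttcggtccacac
miR166-x: aATGAAGActgatccaagatc
stu-miR396-5p: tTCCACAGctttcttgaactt
stu-miR1886a: aTGGTATCgtgagatgaaatcagc
The 3 miR858 sequences are 1 run of bases with shifted ends: miR858-x overlaps miR858-y over 19 bases and miR858-z over 20 bases with 0 differences. Their counts thus describe end variants of 1 sequence, not the arms of a hairpin. The 2 miR8006 sequences share the seed AGTTTTT. Over their 24 bases, miR8006-x differs from stu-miR8006-5p by G13T and A14G, counted from 1 at the 5′ end, with the base of stu-miR8006-5p first.

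The 67 predicted sequences that were separated are called P1 to P67 here, ordered from the most raised (P1) to the most lowered (P67) in Black kingkong and LK99, so that P1 to P35 were higher there and P36 to P67 lower. Those with the largest differences, with the most counts, with differences within a side or with a pairing partner follow, since their bases are their only identity.
P1: aACTTTTCcaggatttgaccc
P2: tGAAGGTCcgaggttgaggtt
P3: tTCCAGAAgagggaacttttc
P4: aATTACATggagatttttctg
P5: cATCATCCtcgtaccttcatc
P6: aTTTCCCTactgacttgggct
P7: tTTAAATTttcgactcaccca
P9: cCGGAGAAcactgatagggag
P10: tTTGGTTGacgggttggtagcct
P11: tGCCCCTGtcatccaaaaact
P12: cTTGGCAAcgatttttgtagaa
P13: gATGATGGaatgtgaagtgcct
P14: gGCAGCGAttttggtggaact
P17: gGCGACTGagccttacaaggct
P18: cCACCAAAatcgctgccaaggc
P19: aTGTCTTTccgatgcctcccat
P20: tTGAGAATtctataaagaaata
P21: tGAGTGACcatatgagaaatca
P22: tGAGTGACcatatgagaaatc
P23: aTTTCTCAatggtcactcaat
P26: tCTCCATTtacggtaagctct
P27: tGTTTCATtggttgttctctt
P43: aTGTCGGGtacacatttgggcc
P51: aGTGAATGaagcgggagtacaagt
P52: cGACGGACaatgtctctttgtc
P53: cGACGGACaaagagacattgtc
P55: gGTAGTTCgatcgtggaatttc
P56: tCTCCTTCacatcatcaactct
P58: tCCAGGGCcagttagctatcac
P59: aTTCCAACtaacgttgactggt
P62: tCATTTGAgggtaaaacgagaa
P63: gGTGGCGActcttttaaaactc
P64: aAGACACActctagccacccga
P65: tTTCCTTGtcccaaaagaacc
P66: tGCGACGCagacttgtttcatg
P67: tTCAAGGAgatgcaatattttt
P2 and P5 are listed by the authors as the arms of 1 hairpin and pair over 19 bases with 3 differences. P52 and P53 share the seed GACGGAC and are reverse complements of each other over 17 bases, with 0 differences.

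The libraries held 5.51 to 7.17 (in units of 1e6) counts over distinct sequences. The miRNA miR166-y took 88.9% to 90.7% of them in Black kingkong and LK99, against 91.9% to 93.8% in Red beauty and Longshu No.7, so all other sequences share the rest. Levels are given as CPM, counts per 1e6 counts after scaling each library by a TMM factor, which ran between 0.797 and 1.44. One library stood apart: Longshu No.7 replicate 3 had the lowest median correlation with its own cultivar (r = 0.871 across sequences) and lay at least 4-fold below both other Longshu No.7 libraries for 67 of 1003 sequences, and for 12 of the 80. Its counts outside miR166-y were 73.5% 21-nt and 20.9% 22-nt sequences, against 63.8% and 65.1% 21-nt sequences in the other Longshu No.7 libraries. LK99 replicate 3 lay at least 4-fold below both other LK99 libraries for 31 of 1003 sequences, and for 1 of the 80. Without Longshu No.7 replicate 3, 62 sequences were separated as higher and 64 as lower in Black kingkong and LK99, and without both libraries 87 and 71, partly by construction, since fewer libraries must then lie apart.

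The choice of this pairing rested on the following values. The contrast of Black kingkong and LK99 against Red beauty and Longshu No.7 held 47.3% of the variance between cultivar means in log2 CPM, against 28.2% for pairing Black kingkong with Red beauty and 24.5% for pairing Black kingkong with Longshu No.7. At any fold, 90 sequences had all libraries of the sides apart, against 43 and 31 in those other pairings. Along the first principal component, which took 40.5% of the variance, Black kingkong lay at 27.9 to 29.0, LK99 at 11.9 to 12.3, Red beauty at -31.2 to -27.7 and Longshu No.7 at -12.9 to -10.2. The sides did not overlap there, but within each side the cultivars were apart, with Black kingkong and Red beauty at the far ends. The second component, 21.9% of the variance, put Black kingkong and Red beauty at 13.6 to 17.7 and LK99 and Longshu No.7 at -18.5 to -13.9. Libraries of the same cultivar correlated at a median r of 0.959 across sequences, those of different cultivars on the same side at 0.819 and those on different sides at 0.752. These coefficients are across sequences, which are not independent replicates and share each library's depth.

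**Figure D1:**
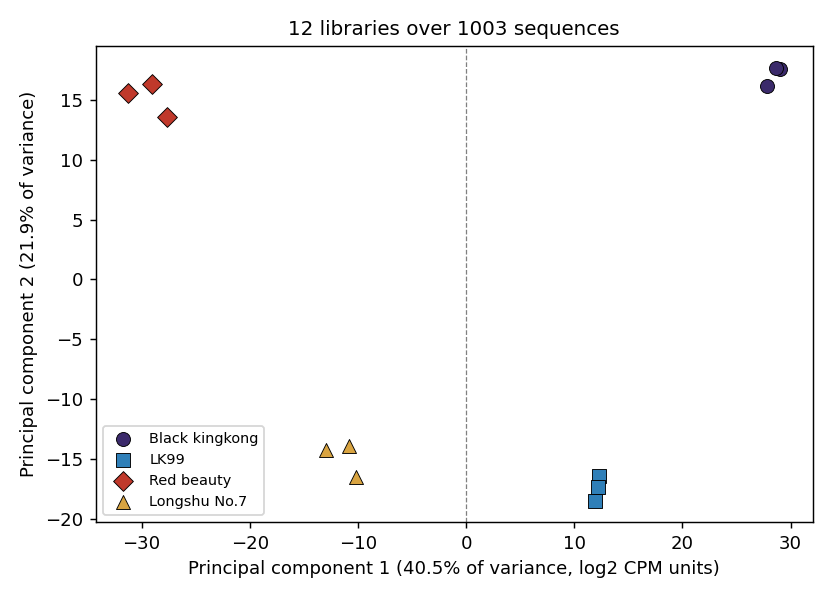
The 12 libraries on the first and second principal components of log2 CPM over 1003 sequences, in log2 CPM units with the share of variance on each axis; symbols mark the cultivars and the dashed line marks 0. Black kingkong and LK99 lie right of 0 (11.9 to 29.0), Red beauty and Longshu No.7 left of it (-31.2 to -10.2), and the second axis parts the cultivars within each side.

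Over all 1003 sequences the median log2 difference between the sides was -0.02. The sequences higher in Black kingkong and LK99 made up 4.39% of those fitted and the lower ones 3.59%. The pairing was picked from the same libraries for how strongly it splits them, so these shares are a description only. The higher ones differed more: their median log2 difference was 3.27 in size, with 34 of 44 past 4-fold and 15 past 32-fold, against 2.07 among the lower ones, with 19 of 36 past 4-fold and 4 past 32-fold. The higher ones also held more counts. Their levels summed to 22815 CPM in Black kingkong and 14001 CPM in LK99, against 245 CPM in Red beauty and 518 CPM in Longshu No.7. P2 alone gave most of the sums in Black kingkong and LK99, and P12 most of that in Longshu No.7. The lower ones summed to 6820 CPM in Black kingkong and 9665 CPM in LK99, against 16928 CPM in Red beauty and 17127 CPM in Longshu No.7, most of it stu-miR396-5p. Of the higher ones 22 averaged under 10 CPM over their high side, and so did 25 of the lower ones. At such levels a few counts on the low side can set the fold. Of the sequences with a potato or other-species name, 13 of 230 (5.65%) were separated, and of the predicted ones 67 of 773 (8.67%).

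**Figure D2:**
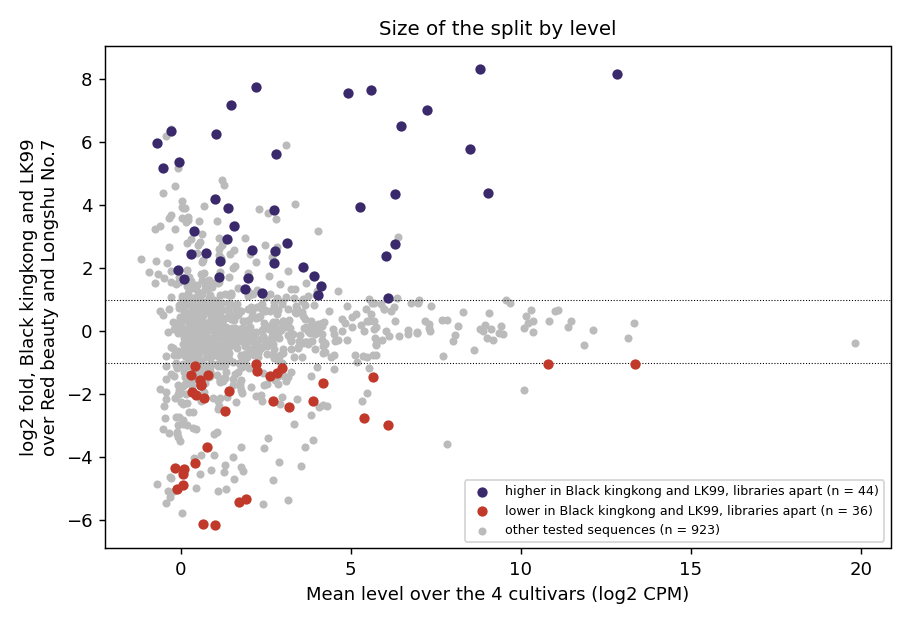
Log2 fold of Black kingkong and LK99 over Red beauty and Longshu No.7 (vertical) against the mean level over the 4 cultivars in log2 CPM (horizontal), 1 point per sequence; the dotted lines mark a 2-fold difference. The 44 separated sequences that were higher reach a log2 fold of 8.33 at high levels, the 36 lower ones reach -6.16, and most of those lie at low levels.

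All 4 tested sequences of the MYB-targeting families were higher in Black kingkong and LK99, with a median log2 difference of 5.94, beside 4.39% of all sequences and a median of -0.02. Of the 4, 3 are end variants of 1 miR858 sequence, so this share and median count it several times. The pairing was also picked from these same values, so the share is a description only. MiR858-x had 383, 372 and 485 CPM in Black kingkong and 138, 174 and 262 CPM in LK99, against 1.06, 0.794 and 4.42 CPM in Red beauty and 1.18, 1.09 and 4.52 CPM in Longshu No.7. The lowest library of Black kingkong and LK99 stood far above the highest of the others. The log2 difference between the sides was 7.03 ± 0.47 (SE). On the low side replicate 3 of both cultivars was higher than replicates 1 and 2.
The shifted variant miR858-y showed the same pattern at lower levels. It had 211, 199 and 232 CPM in Black kingkong and 183, 116 and 118 CPM in LK99, against 1.06, 0.595 and 4.06 CPM in Red beauty and 1.05, 0.727 and 3.87 CPM in Longshu No.7, a log2 difference of 6.53 ± 0.47 (SE). The rarer variant miR858-z had 79 counts in the 6 libraries of Black kingkong and LK99 and 1 count in the 6 of Red beauty and Longshu No.7, a ratio of 63.2 (95% counting interval 11.0 to 2529). Such intervals take in counting error alone, because reads copied by PCR are not separate molecules.

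MiR828-x, which directs the cutting of MYB transcripts and of a phased small RNA locus in other plants, differed less. It had 7.02, 8.62 and 7.13 CPM in Black kingkong and 8.41, 4.61 and 7.46 CPM in LK99, against 2.66, 1.98 and 1.47 CPM in Red beauty and 0.523, 0.545 and 1.08 CPM in Longshu No.7, a log2 difference of 2.58 ± 0.29 (SE). The libraries of the sides did not overlap, but the low side was not uniform: Red beauty lay above Longshu No.7 (log2 difference 1.54 ± 0.46 (SE), adjusted p = 0.028, edgeR). The other listed miR828 sequence had too few counts to be fitted, with 1, 1, 0 and 1 counts in Black kingkong, LK99, Red beauty and Longshu No.7.

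The conserved miRNA stu-miR530 was higher in Black kingkong and LK99 by a log2 difference of 5.79 ± 0.27 (SE). It had 595, 620 and 601 CPM in Black kingkong and 776, 512 and 1148 CPM in LK99, against 11.5, 14.5 and 18.1 CPM in Red beauty and 10.1, 7.09 and 15.5 CPM in Longshu No.7. No library of Red beauty or Longshu No.7 came near the lowest LK99 library. The sequence of miR530-x overlaps it over 19 bases with 0 differences, its 5′ end shifted by 2 bases, yet miR530-x was level: 677 ± 109 CPM in Black kingkong, 615 ± 189.8 CPM in LK99, 689 ± 174 CPM in Red beauty and 645 ± 138 CPM in Longshu No.7 (mean ± SD, n = 3 each), with a log2 difference of -0.05 ± 0.18 (SE). The 2 sequences had similar levels in Black kingkong and LK99, and only the variant with the earlier 5′ end was low in the other cultivars.

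Both 24-nt miR8006 sequences, a family named in potato, were higher in Black kingkong and LK99, but by very different amounts. Stu-miR8006-5p had 216, 183 and 204 CPM in Black kingkong and 98.1, 107 and 107 CPM in LK99, against 7.81, 5.75 and 8.85 CPM in Red beauty and 7.33, 6.36 and 5.81 CPM in Longshu No.7, a log2 difference of 4.37 ± 0.18 (SE). The libraries of each cultivar lay close together, and Black kingkong exceeded LK99 (log2 difference 0.95 ± 0.22 (SE), adjusted p = 0.0057, edgeR). MiR8006-x, which differs by 2 bases, had 85.3, 72.5 and 69.8 CPM in Black kingkong and 101, 111 and 113 CPM in LK99, against 39.2, 33.5 and 38.0 CPM in Red beauty and 53.4, 61.1 and 43.5 CPM in Longshu No.7, a log2 difference of 1.04 ± 0.16 (SE). It was the separated sequence nearest to the 2-fold threshold on the higher side. Just outside the threshold, the predicted sequence tCTAGTTGtagccggtctatt had its libraries apart too, with 141 to 235 CPM in Black kingkong and LK99 against 68.4 to 111 CPM in Red beauty and Longshu No.7 and a log2 difference of 0.98. MiR8006-y did not separate the sides (log2 difference 0.27). Nor did the near-identical predicted sequences that were fitted: tCTAGTTTttggacggcaggggt had 69, 9, 0 and 4 counts and tCTAGTTTttggacgacagggac 0, 54, 1 and 5 counts in Black kingkong, LK99, Red beauty and Longshu No.7. The first was thus mostly found in Black kingkong and the second in LK99.

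A pair of further named sequences were higher at low levels. Stu-miR169f-3p, from the arm opposite the one that targets NF-YA transcription factors, had 9.32, 9.96 and 13.6 CPM in Black kingkong and 11.6, 9.21 and 12.2 CPM in LK99, against 2.31, 3.97 and 0.922 CPM in Red beauty and 2.75, 2.18 and 2.37 CPM in Longshu No.7, a log2 difference of 2.18 ± 0.30 (SE). The cultivars of a side had nearly the same means, 11.0 and 11.0 CPM against 2.40 and 2.43 CPM. Stu-miR393-5p, which targets auxin receptors, had 23.5, 29.0 and 19.4 CPM in Black kingkong and 20.2, 17.0 and 25.1 CPM in LK99, against 13.1, 12.3 and 9.03 CPM in Red beauty and 5.89, 7.09 and 14.2 CPM in Longshu No.7, a log2 difference of 1.14 ± 0.25 (SE). Here the sides came close: the lowest LK99 library and the highest Longshu No.7 library lay within 1.5-fold. MiR393-x, which differs from it by C21T and C22T (base of stu-miR393-5p first), averaged 9.55 ± 2.85 and 13.9 ± 3.51 CPM in Black kingkong and LK99, against 5.22 ± 1.79 and 5.65 ± 4.11 CPM in Red beauty and Longshu No.7 (mean ± SD, n = 3 each), with overlapping libraries.

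The 4 named sequences that were lower in Black kingkong and LK99 differed by less than the miR858 or miR530 sequences. Stu-miR319a-5p lies on the arm opposite stu-miR319a-3p, the strand that targets TCP genes. It had 14.2, 11.7 and 10.1 CPM in Black kingkong and 5.09, 5.07 and 7.59 CPM in LK99, against 19.0, 17.7 and 22.7 CPM in Red beauty and 37.9, 38.5 and 28.8 CPM in Longshu No.7, a log2 difference of -1.64 ± 0.21 (SE). All 4 cultivars stood at their own level, with LK99 lowest and Longshu No.7 highest. Its partner stu-miR319a-3p was far more abundant and did not separate the sides: 5623 ± 354 CPM in Black kingkong and 1404 ± 477 CPM in LK99, against 2868 ± 534 CPM in Red beauty and 5042 ± 797 CPM in Longshu No.7 (mean ± SD, n = 3 each).

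Stu-miR396-5p, which targets growth-regulating factors, was the most abundant separated sequence in Red beauty and Longshu No.7. It had 5699, 5065 and 5980.2 CPM in Black kingkong and 6954, 9326 and 9105 CPM in LK99, against 11657, 15086 and 17769 CPM in Red beauty and 10691, 9842 and 19808 CPM in Longshu No.7, a log2 difference of -1.04 ± 0.18 (SE). The highest LK99 and the lowest Longshu No.7 library were close, 9326 and 9842 CPM. The variant miR396-x, which differs by C4A and T21G (base of stu-miR396-5p first), was level, with 685 ± 44.0 and 775 ± 119 CPM in Black kingkong and LK99, against 660.2 ± 95.6 and 642 ± 168 CPM in Red beauty and Longshu No.7 (mean ± SD, n = 3 each). MiR166-x had 1020.3, 1017 and 1361 CPM in Black kingkong and 987, 1088 and 1232 CPM in LK99, against 1496, 2032 and 1404 CPM in Red beauty and 2067, 1946 and 5652 CPM in Longshu No.7, a log2 difference of -1.04 ± 0.24 (SE). Without Longshu No.7 replicate 3 the log2 difference was -0.63 for miR166-x and -0.78 for stu-miR396-5p, so that both fell short of 2-fold. Leaving out 1 library at a time ended the separation of miR166-x for 9 of 12 libraries and that of stu-miR396-5p for 5 of 12, either by overlap or by the fold. Scaled by total counts alone, neither stu-miR396-5p (log2 difference -0.71) nor miR166-x (-0.71) was separated. MiR166-y, counted here as the arm opposite miR166-x and far more abundant, was not separated (log2 difference -0.37 ± 0.10 (SE)). Whether miR166-x itself acts on HD-ZIP III factors was not tested. Stu-miR1886a, a rare 24-nt sequence, had 29 counts in Black kingkong and LK99 and 60 in Red beauty and Longshu No.7, a log2 difference of -1.39 ± 0.36 (SE).

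**Figure D3:**
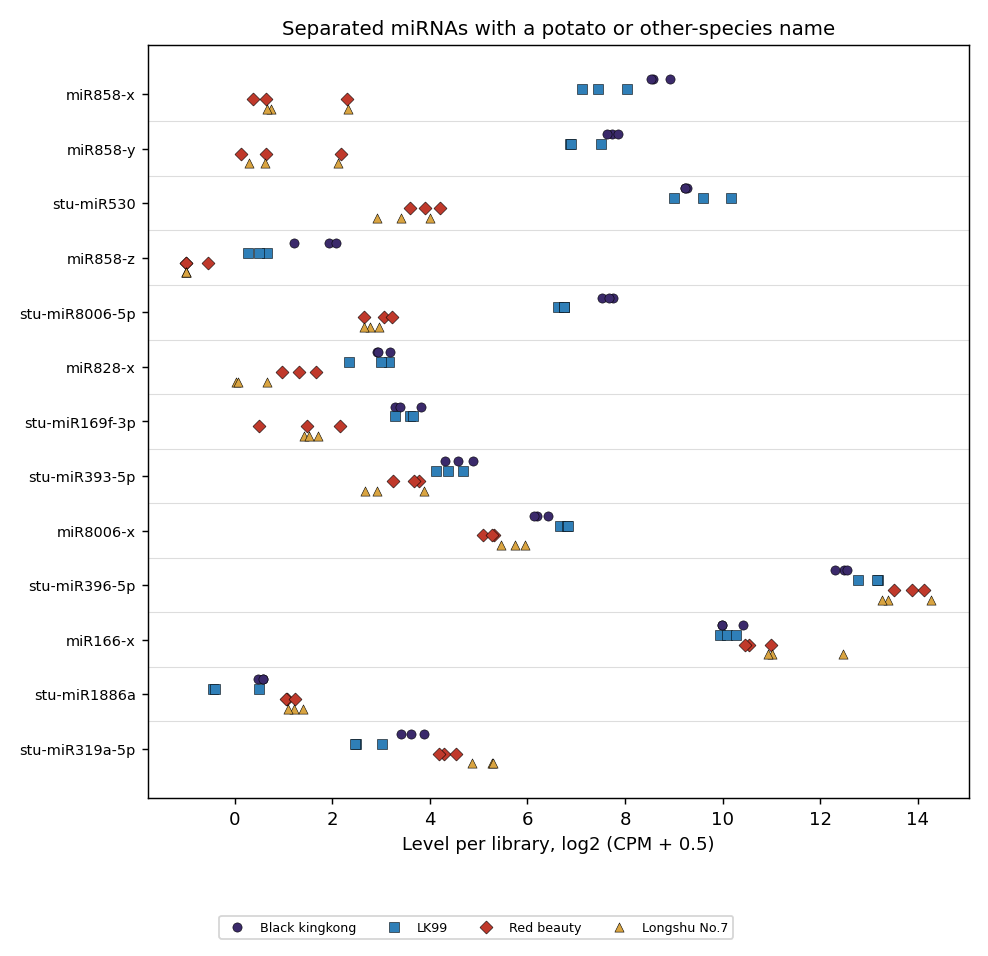
Level of the 13 separated sequences with a potato or other-species name in each library, as log2(CPM + 0.5); symbols mark the cultivars, and the sequences run from the most raised in Black kingkong and LK99 at the top to the most lowered at the bottom. The miR858 variants and stu-miR530 show wide gaps between the sides, while stu-miR396-5p, miR166-x and stu-miR393-5p show libraries that nearly touch.

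The counts for the other regulatory families stand beside shares of 4.39% higher and 3.59% lower over all sequences, and in lists this small 1 or 2 sequences set the share. Of 8 tested sequences of miR156 and miR157, which target SPL factors, 0 were separated. Stu-miR156e averaged 137 ± 19.3 CPM in Red beauty alone, with 11.4 to 17.2 CPM in the other cultivars. Of 7 sequences of miR159 and miR319, only stu-miR319a-5p was separated, and of 8 sequences of the auxin-related families only stu-miR393-5p. Of 20 tested sequences of the families for meristem, polarity and phase change, miR166-x and stu-miR396-5p were lower and 0 were higher. The far more abundant miR166-y was not separated. In that list miR164-x (log2 difference 2.25), stu-miR172e-5p (2.19) and stu-miR172d-5p (2.42) differed more than 4-fold with overlapping libraries at levels under 10 CPM.

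The copper-responsive miRNAs (0 of 5), the miRNAs of the small RNA pathway (0 of 8) and the regulators of resistance genes (0 of 25) held no separated sequence. Their median log2 differences were -0.71, -0.07 and 0.23. In the nutrition families 1 of 10 was separated, stu-miR169f-3p, and among potato miRNAs of the range miR7979 to miR8051 only the miR8006 pair of 63. Stu-miR6149-5p shows that a mean difference between the sides need not be shared by the cultivars of a side. It averaged 1007 ± 75.0 CPM in Black kingkong and 171 ± 90.4 CPM in LK99, against 2097 ± 332 CPM in Red beauty and 1079.7 ± 133 CPM in Longshu No.7 (mean ± SD, n = 3 each). LK99 was lowest and Red beauty highest there, while Black kingkong and Longshu No.7 had close means.

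The predicted sequences held the largest differences. P2 had 15261, 19478 and 21710.2 CPM in Black kingkong and 9632, 7565 and 13278 CPM in LK99, against 68.5, 1.79 and 174 CPM in Red beauty and 32.7, 26.5 and 25.4 CPM in Longshu No.7, a log2 difference of 8.17 ± 0.91 (SE). It was the most abundant separated sequence in Black kingkong and LK99, and the Red beauty libraries alone ranged from 1.79 to 174 CPM. The other arm, P5, followed it at a much lower level, with 42.7, 48.8 and 45.2 CPM in Black kingkong and 90.4, 27.9 and 104 CPM in LK99, against 0, 0.595 and 0.553 CPM in Red beauty and 0.262, 0.182 and 0.215 CPM in Longshu No.7, a log2 difference of 7.55 ± 0.47 (SE).

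P1 had the highest fitted difference of all, 8.33 ± 0.65 (SE) on the log2 scale. It had 1018, 1032 and 912 CPM in Black kingkong and 531, 593 and 1209.7 CPM in LK99, against 3.55, 0 and 8.48 CPM in Red beauty and 2.36, 1.27 and 1.72 CPM in Longshu No.7. As with P2, Red beauty replicate 2 was lowest and replicate 3 highest on that side. Over the 15 sequences past 32-fold on the higher side, Red beauty replicates 1 to 3 held 487, 92 and 1141 counts and Longshu No.7 replicates 398, 238 and 239. Without P2, the most abundant of them, these were 101, 83 and 197 counts in Red beauty and 148, 92 and 121 in Longshu No.7. Where these low counts come from was not tested.

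Some of the large differences rest on very few counts on the low side. P4 had 3892 counts in Black kingkong and LK99 and 13 in Red beauty and Longshu No.7, with Black kingkong above LK99 (135, 152 and 157 CPM against 33.4, 39.0 and 57.7 CPM, adjusted p = 0.0052, edgeR). P3 had 400 counts and 1 count on the sides, a ratio of 320.2 (95% counting interval 57.1 to 12679). P6 had 236 counts and 1 count, a ratio of 189 (95% counting interval 33.6 to 7494). The separation of P8 (log2 difference 6.25) rested on the scaling. LK99 replicate 3 and Longshu No.7 replicate 1 each held 1 count of P8, at 0.1309 and 0.1308 CPM. For 2 further sequences Red beauty and Longshu No.7 had 0 counts in all 6 libraries, which allows a level of up to 0.0885 CPM (3 counts over the side). P7, with 69 counts in Black kingkong and LK99, was at least 18.4-fold higher there, and P9, with 52 counts, at least 13.9-fold higher. These 2 were picked for their 0 counts after their values were seen.

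Other abundant sequences were uneven within the low side. P12 had 587, 890.3 and 867 CPM in Black kingkong and 756, 1258 and 1047 CPM in LK99, against 3.37, 0 and 16.2 CPM in Red beauty and 404, 433 and 1.51 CPM in Longshu No.7, a log2 difference of 4.38 ± 1.12 (SE). Replicates 1 and 2 of Longshu No.7 stood near the high side, while replicate 3 was at the level of Red beauty. P21 showed the same drop in 1 library, with 179, 188 and 116 CPM in Black kingkong and 90.2, 119.9 and 123 CPM in LK99, against 13.7, 12.1 and 11.6 CPM in Red beauty and 44.9, 44.3 and 1.51 CPM in Longshu No.7. Without Longshu No.7 replicate 3 the log2 differences were 4.15 for P12 and 2.56 for P21, and both sequences were separated.

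Among the predicted sequences lower in Black kingkong and LK99, P56 held the most counts. It had 12.2, 11.7 and 8.95 CPM in Black kingkong and 16.2, 21.5 and 25.8 CPM in LK99, against 123, 132 and 147 CPM in Red beauty and 135, 162 and 27.1 CPM in Longshu No.7, a log2 difference of -2.98 ± 0.35 (SE). Longshu No.7 replicate 3 lay just above the highest LK99 library, and without it the difference was -3.15. P55 had 8.60, 6.99 and 8.62 CPM in Black kingkong and 21.1, 6.45 and 10.2 CPM in LK99, against 47.9, 44.6 and 43.7 CPM in Red beauty and 95.8, 103 and 109 CPM in Longshu No.7, a log2 difference of -2.75 ± 0.26 (SE). Longshu No.7 was above Red beauty there (adjusted p = 0.023 for Red beauty over Longshu No.7, edgeR, log2 difference -1.17). Also among the 4 with the most counts were P43 (log2 difference -1.46 ± 0.45, SE) and the 24-nt P51 (-2.20 ± 0.33, SE). For P43, LK99 replicate 3 had 1.96 CPM beside 25.8 and 41.1 CPM in replicates 1 and 2, and without that library the difference was -1.18.

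The lower sequences with the largest fitted differences were rare. P66 had 1 count in Black kingkong and LK99 and 104 in Red beauty and Longshu No.7, a ratio of 129.9 (95% counting interval 22.8 to 5179.9) for Red beauty and Longshu No.7 over Black kingkong and LK99. In the same direction of the ratio, P67 had 3 and 141 counts, a ratio of 58.7 (95% counting interval 19.7 to 288), P63 2 and 58 counts, a ratio of 36.2 (95% counting interval 9.59 to 306), and P62 2 and 70 counts, a ratio of 43.7 (95% counting interval 11.7 to 368). The separation of P67 was narrow: Longshu No.7 held 39, 17 and 1 counts of it. That last library had 0.215 CPM, against 0.154 CPM in the highest LK99 library, which also had 1 count. Scaled by total counts alone, P67 was not separated. P64 and P65 were not detected in Black kingkong, where 0 counts allow up to 0.152 CPM. LK99 held 1.78, 1.54 and 1.18 CPM of P64, against 6.03, 6.75 and 7.74 CPM in Red beauty and 6.28, 11.6 and 2.58 CPM in Longshu No.7. Their low side thus holds 2 levels, with LK99 between Black kingkong and the other cultivars. Just outside the 2-fold threshold, the predicted sequence aAAATTGAacaagtagacacact had 0.595 to 1.29 CPM in Black kingkong and LK99 against 1.29 to 2.31 CPM in Red beauty and Longshu No.7 (log2 difference -0.99).

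**Figure D4:**
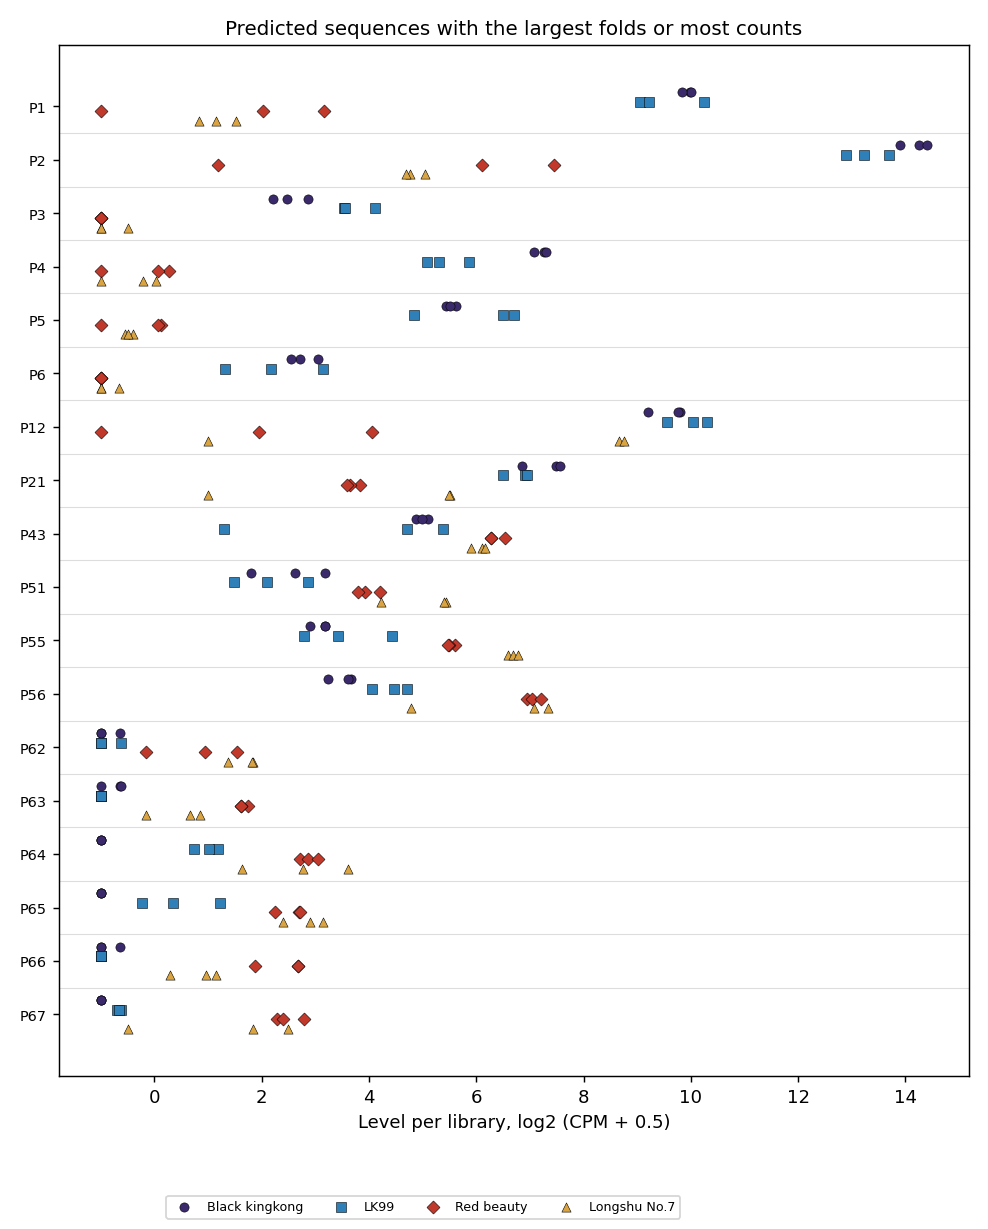
Level in each library, as log2(CPM + 0.5), of the predicted sequences with the largest fitted differences or the most counts, with those higher in Black kingkong and LK99 above and those lower below; symbols mark the cultivars and points at -1 are 0 counts. P2 lies farthest right in Black kingkong and LK99, and the lone low triangles of Longshu No.7 for P12, P21 and P56 are replicate 3.

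Differences between the cultivars of a side are not part of the contrast between the sides. These were tested with edgeR, with p-values adjusted over all 1003 sequences. Picking the strongest pairing favours small differences within a side. The requirement that all libraries of the sides lie apart favours sequences with small ones too. The counts below are thus no measure of how uniform the sides are. Black kingkong and LK99 differed in 287 of 1003 sequences (28.6%), among them 8 of the 44 higher and 6 of the 36 lower ones. Red beauty and Longshu No.7 differed in 228 (22.7%), among them 10 of the 44 higher and 5 of the 36 lower ones. For 26 of the 44 higher and 26 of the 36 lower sequences neither test was passed, which does not show that the cultivars of a side were alike. Among the 80 separated sequences, the 5 smallest p-values of each test belonged to predicted ones. The complementary pair P53 and P52 were higher in Black kingkong than in LK99, at 5.88, 7.73 and 8.29 CPM against 0.947, 0.921 and 0.786 CPM (log2 difference 3.02 ± 0.35 (SE), adjusted p = 3.2e-05) and 5.45, 5.05 and 3.98 CPM against 1.07, 0.614 and 1.05 CPM (2.37 ± 0.38 (SE), adjusted p = 0.00044). Red beauty had 17.7 ± 1.23 CPM and Longshu No.7 10.5 ± 2.58 CPM of P53 (mean ± SD, n = 3 each). Black kingkong thus stood between LK99 and the other side, and its highest library was just under the lowest of Longshu No.7, 8.29 against 8.36 CPM. Leaving out 1 library at a time ended the separation of P53 for 10 of 12 libraries.

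In the opposite sense, P26 was lower in Black kingkong, 1.15, 1.04 and 1.49 CPM against 5.68, 7.83 and 6.02 CPM in LK99 (log2 difference -2.39 ± 0.49 (SE), adjusted p = 0.0022, edgeR). P64 and P58 had 0 counts in Black kingkong and were at least 9.90-fold and 5.24-fold lower there than in LK99 (adjusted p = 0.0013 and 0.0027). Within the other side, P20 had 0.532, 0.198 and 0.922 CPM in Red beauty against 7.72, 5.82 and 6.67 CPM in Longshu No.7 (log2 difference -3.55 ± 0.50 (SE), adjusted p = 0.00022), below 15.1 ± 6.16 and 12.3 ± 1.47 CPM in Black kingkong and LK99. Longshu No.7 was here the cultivar between the extremes. P14 had 0.355, 0.794 and 1.84 CPM in Red beauty against 26.6, 26.2 and 0.861 CPM in Longshu No.7 (adjusted p = 0.0075), with replicate 3 of Longshu No.7 at the level of Red beauty. P27 went the other way, with 9.58, 10.5 and 11.6 CPM in Red beauty against 2.88, 2.36 and 0 CPM in Longshu No.7 (adjusted p = 0.0054). Red beauty had 0 counts of P13 and P10, which were at least 8.14-fold and 18.1-fold lower there than in Longshu No.7 (adjusted p = 0.00068 and 0.0075). The Longshu No.7 counts of P10 came from replicates 1 and 2 alone (27 and 33 counts), and replicate 3 had 0.

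**Figure D5:**
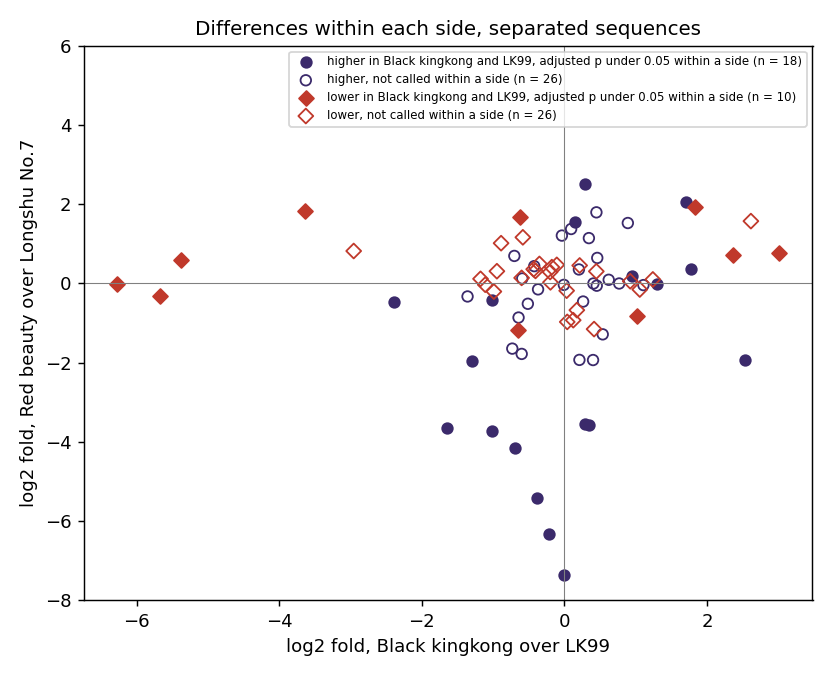
Log2 fold of Black kingkong over LK99 (horizontal) against log2 fold of Red beauty over Longshu No.7 (vertical) for the 80 separated sequences; filled symbols passed an adjusted p of 0.05 in at least 1 of the tests, and fitted folds of sequences with 0 counts in a cultivar depend on the prior count. Of the 44 higher sequences 18 are filled and of the 36 lower ones 10, and the long tails point to sequences nearly absent from 1 cultivar of a side.

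The separated sequences were mostly unrelated to each other. Counting sequences as near-identical when they overlap by at least 18 bases with at most 2 differences, the 80 fell into 76 groups, and 7 sequences made up the 3 groups of 2 or more: the miR858 variants, the miR8006 pair, and P21 with P22, the same bases 1 nt shorter. No higher sequence was near-identical to a lower one. Of the 44 higher ones 11 (25.0%) had a near-identical sequence among those fitted, against 3 of the 36 lower ones (8.33%) and 191 of the other 923 (20.7%). Near-identical sequences need not move together. Besides miR530-x, stu-miR8036-3p averaged 206 ± 21.7 and 213 ± 17.8 CPM in Black kingkong and LK99, against 108 ± 1.40 and 136 ± 13.8 CPM in Red beauty and Longshu No.7 (mean ± SD, n = 3 each, log2 difference 0.79), while P19, the same bases shifted by 1, differed by 2.91 on the log2 scale.

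Reverse complements tied some separated sequences together. Pairs were sought over at least 15 bases with at most 3 differences. P11, higher by 5.17 on the log2 scale, is complementary to stu-miR8006-5p over 21 bases with 1 difference and to miR8006-x with 3. P14 (log2 difference 3.94) is complementary to P18 (3.20) over 17 bases with 0 differences, and P12 to P18 over 20 bases with 3. At the limit of the search, P13, which was higher, is complementary to P37, which was lower, over 15 bases with 3 differences. For 14 hairpins with a separated sequence both arms were fitted, and in 2 of them both arms were separated, P2 with P5 and P23 with P21. In 10 of the other 12 the arm that was not separated had the sign of its partner, as for stu-miR393-3p (log2 difference 0.47) and stu-miR319a-3p (-0.44). In 5 of these it was past 2-fold, all predicted and among them the arms opposite P56 (-1.50) and P51 (-1.41). Stu-miR396-3p (0.26) had the opposite sign. The share of same-sign arms over all fitted hairpins was not worked out, so these counts have no background to be read against. The miR166 and miR8006 pairs were counted as arms from the endings x and y, which the labels do not explain. By length, 21-nt sequences made up 52.3% of the higher and 33.3% of the lower ones, against 36.3% of all 1003. Sequences of 23 nt made up 4.55% and 5.56%, against 18.3% of all. A first base T, common in plant miRNAs, was found in 56.8% of the higher and 36.1% of the lower sequences, against 51.0% of all.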

How the data were processed

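The authors deposited 1 table of 7827 mature miRNA entries with whole-number counts per library, per the file headers. Aligner, counting program, miRBase release and build: not given in the sources used here. A deposited length column (other) gives nt. The deposited columns headed TPM were treated as a score and not used: counts had been divided by 79.0 (in 1e6) in Black kingkong replicate 1 and by 5.68 to 7.44 in the other libraries.

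Entries were reduced to 5730 distinct sequences of 18 to 26 nt (201 with a potato name, 929 with a name from other species, 4600 predicted) by keeping the entry with the most counts. For 94 of 1072 sequences with several entries the entries had unequal counts. FilterByExpr (minimum count 10, minimum total 15) kept 1003 sequences, 230 of them named, with 99.9% of the counts in the median library, and 4727 were not fitted. One edgeR 4.0.16 quasi-likelihood fit (limma 3.58.1, R 4.3.3, TMM) over 12 libraries with 1 coefficient per cultivar gave the differences and SE. A further test compared the size of the split in Black kingkong over Red beauty with that in LK99 over Longshu No.7 (the difference in split). This test and the within-side tests were adjusted by Benjamini-Hochberg (threshold 0.05). The fit was tested on simulated data. Named sequences were the separated ones with the largest differences (12 named and 6 predicted per direction) and the 4 predicted with the most counts per direction. Those nearest the threshold were added, and the 5 with the smallest p in each within-side test and in the test of the difference in split. The pairing, the lists of families and the rules were chosen with earlier results of these data known. Sequences are from the deposited table. The depth of 5.51 to 7.17 (in 1e6) counts per library limits rare sequences: 0 counts over a side allow 0.0709 CPM (Black kingkong and LK99) or 0.0885 CPM (Red beauty and Longshu No.7). Alternatives covered scaling, filters, entry choice, fold threshold, left-out libraries, the replicate block, DESeq2 1.42.0 and fits of 2 cultivars. No animal-type miRNA name was found (0 entries).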

Additional observations from a re-analysis of the deposited data

Results flagged for a closer look

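For 12 separated sequences the size of the split differed between Black kingkong over Red beauty and LK99 over Longshu No.7. These partners across the sides were chosen because Black kingkong and Red beauty are named for a colour. The difference itself was tested (edgeR, adjusted over 1003 sequences, of which 212, or 21.1%, passed). It equals the log2 difference of Black kingkong over LK99 minus that of Red beauty over Longshu No.7, so it is not independent of the within-side tests. Other partners across the sides would give another contrast, which was not tested. A positive difference means that Black kingkong over Red beauty exceeded LK99 over Longshu No.7, and n = 3 libraries per cultivar. Among sequences with counts in all cultivars, stu-miR319a-5p differed by 1.85 on the log2 scale (adjusted p = 0.0049), P53 by 2.25 (adjusted p = 0.0028), P52 by 1.64 (adjusted p = 0.029), P20 by 3.84 (adjusted p = 0.00066), P17 by 3.91 (adjusted p = 0.026) and P27 by -2.22 (adjusted p = 0.046). P27 had 20.2, 20.8 and 19.2 CPM in Black kingkong and 16.5, 15.4 and 17.3 CPM in LK99, above both other cultivars. P17 had 6.31, 5.95 and 4.64 CPM in Black kingkong and 3.55, 5.07 and 4.71 CPM in LK99, against 0, 0.198 and 0.184 CPM in Red beauty and 2.62, 2.18 and 0 CPM in Longshu No.7.

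The other 6 had 0 counts in 1 cultivar, so their fitted differences depend on the prior count and are not given. Red beauty had 0 counts of P10 (adjusted p = 0.018) and P13 (adjusted p = 0.0021). Longshu No.7 replicate 3 had 0 counts of P10 too. Black kingkong had 0 counts of P58 (adjusted p = 0.004), P59 (adjusted p = 0.02), P64 (adjusted p = 0.0042) and P65 (adjusted p = 0.013). P59 had 5 counts in LK99, 43 counts in Red beauty and 13 counts in Longshu No.7. P65 had 22 counts in LK99, 87 counts in Red beauty and 121 counts in Longshu No.7. For P17, P52, P27 and P59 the threshold was missed under 7 of 21, 8 of 21, 13 of 22 and 2 of 21 alternatives, with adjusted p up to 0.082, 0.12, 0.12 and 0.068. The other 8 passed under every alternative that gave them a value, with adjusted p of at most 0.042.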

How the results depend on the processing

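In 991 values of the 42 log2 differences between the sides under the alternatives, 0 changed sign and 41 moved by more than the spread. Changes of the fold threshold repeat the main values and could move none. Most of the 42 were chosen because all libraries of the sides lay apart, so a change of sign was hardly possible. The counts moved most with the filter on low counts and with Longshu No.7 replicate 3. Requiring 10 CPM gave 18 higher and 13 lower sequences. It gave 73, 49 and 70 calls for Black kingkong over LK99, Red beauty over Longshu No.7 and the difference in split. No filter gave 88 higher and 50 lower, and 517, 450 and 349 calls. Without replicate 3 of both Longshu No.7 and LK99 there were 87 higher and 71 lower sequences and 438, 366 and 354 calls. Leaving out each library in turn gave 46 to 63 higher and 36 to 64 lower sequences (64 without Longshu No.7 replicate 3), and 197 to 426, 154 to 311 and 157 to 293 calls. Fitting only the 2 cultivars gave 146 calls for Red beauty over Longshu No.7. Scaling by total counts alone shifted the median log2 difference of all sequences to 0.287 and gave 55 higher and 19 lower ones (74.3% higher, against 55.0% with TMM). In the same scaling 26.4% of the calls for Black kingkong over LK99 were higher in Black kingkong, against 42.2% with TMM. A 4-fold threshold left 34 higher and 19 lower. The replicate block gave 278, 203 and 205 calls, and same-numbered libraries deviated together with r of -0.08 to 0.18 (3 of 18 pairs over 0.1), so the numbers were not taken as pairs. Apart from changes of the fold threshold, separation was lost under 13 of 22 alternatives for miR166-x, 11 of 22 for stu-miR396-5p and 16 of 22 for P53. It was also lost under 2 of 22 for P56 and for P20, and under 1 of 21 for P64 and for P67. Scaling by total counts alone was among these for each of them except P53, which stayed separated there (log2 difference -2.09). MiR8006-x (0.83) and stu-miR393-5p (0.93) fell under 2-fold with the 10 CPM filter. Depth limits sequences under 10 CPM.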
